A study of Homo sapiens with 4 samples.

Results

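The replication-independent histone variants described here are 10 genes, chosen by symbol from the 25737 genes of the deposited table: H2AFZ, H2AFV, H2AFX, H2AFY, H2AFY2 and H2AFJ of the H2A family, H3F3A and H3F3B of the H3 family, and the linker histones H1F0 and H1FX. The rule uses the symbols alone and no threshold on a value. Expression was measured in 4 RNA-sequencing libraries from cells that carry the label SKOV-3, an established human ovarian cancer cell line. In the DMSO group (2 libraries) the cells received the solvent alone, and in the RAME group (2 libraries) they received 40 µM rosmarinic acid methyl ester, an ester of a phenolic acid found in rosemary, for 24 h. Both groups share the line, its medium with serum and the library kit. Whether the libraries of a group are from separate cultures is not stated, and the p-values therefore cover the spread between these 4 libraries alone, which may be technical.

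The libraries were made from the poly(A) end of the mRNA, so that a transcript gives about 1 read whatever its length. Levels in CPM (counts scaled to the library's size) can then be set side by side between genes, if reads were assigned alike. The annotation and the counting of reads that match several genes were not given, so the order of genes by level is approximate. Reads per library ran from 1441575 to 2543566, with the larger totals in the DMSO group, and 8052 to 8708 genes had a read. Of 8 genes that mark this line, VIM had 1176 to 2191 reads per library, ERBB2, KRT7, KRT19 and EPCAM had 0 reads in all 4 libraries, and KRT8, KRT18 and CDH1 had at most 3, so the defining epithelial markers were at or near 0. The labelled line was therefore not borne out by these epithelial markers, and the identity of the cells was not tested further. CDKN2A, which the line is known to lack, had 1 read. Of 6 markers of other cell types, PTPRC, CD3E and PECAM1 were at 0, DCN had 2 reads in all, COL1A1 21 and ALB 149 in DMSO 1, 5 in DMSO 2, 101 in RAME 1 and 40 in RAME 2. Values of 4 libraries are listed in that order throughout. The part of these markers in the results was not tested.

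Most histone protein is made from clustered genes that are switched on when DNA is copied and whose mRNAs end in a stem-loop in place of a poly(A) tail. The genes described here have polyadenylated mRNAs, and most are transcribed through the whole cell cycle. Their proteins replace the standard histones at chosen sites or in cells that have stopped dividing. Any form of their mRNAs without the tail would be missed by this kit. Chaperones and remodelling complexes carry each variant to chromatin: the SRCAP and TIP60 complexes exchange H2A.Z, and HIRA and the DAXX and ATRX pair deposit the H3 variant of H3F3A and H3F3B.

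Promoter sequence from RefSeq (GRCh38.p14, 250 bases before and 50 after a start) was found for 9 of the 10 genes, in 13 windows because H3F3A has 4 listed starts and H2AFY has 2. The entry of H1F0 was not found. The promoters were searched on both strands for CCAAT, the letters of the site bound by NF-Y, and for GGGCGG, the letters of the GC box bound by SP1. The letters CCAAT occurred in 9 of the 13 windows (7 of the 9 genes), and at least 3 times in 5 windows, 1 each of 5 genes (H2AFZ, H2AFV, H2AFX, H2AFJ and H3F3B). Among all 35116 promoter windows, 34.6% held CCAAT and 3.26% held it at least 3 times. GGGCGG occurred in 8 of the 13 windows (5 of the 9 genes), against 45.0% of all windows. The windows of H3F3A overlap in part and are not independent. Base composition was not matched, and a match of letters is no evidence of binding. Shown first are the windows of H2AFZ and H3F3B, which had the most reads of the group, then that of H1FX. H1FX was called lower with RAME in edgeR, a call that several alternatives lost. Capitals mark CCAAT or GGGCGG on either strand (CCAAT reads ATTGG, and GGGCGG reads CCGCCC, on the other strand), and each window is given 5′ to 3′ on the gene's strand, which is the minus strand in all 3.
H2AFZ, chr4:99950226-99950525: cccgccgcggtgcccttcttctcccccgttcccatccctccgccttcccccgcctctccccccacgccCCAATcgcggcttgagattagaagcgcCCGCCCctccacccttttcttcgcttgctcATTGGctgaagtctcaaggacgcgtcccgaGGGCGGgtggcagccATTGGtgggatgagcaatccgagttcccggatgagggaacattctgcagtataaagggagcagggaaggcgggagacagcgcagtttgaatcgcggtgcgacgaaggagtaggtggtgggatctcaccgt
H3F3B, chr17:75779730-75780029: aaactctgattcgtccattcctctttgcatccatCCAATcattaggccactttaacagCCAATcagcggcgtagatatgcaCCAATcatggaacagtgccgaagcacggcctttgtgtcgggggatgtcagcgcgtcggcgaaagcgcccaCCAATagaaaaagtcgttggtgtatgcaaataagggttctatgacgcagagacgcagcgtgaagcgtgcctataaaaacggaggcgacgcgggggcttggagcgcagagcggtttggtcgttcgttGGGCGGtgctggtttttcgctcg
H1FX, chr3:129316237-129316536: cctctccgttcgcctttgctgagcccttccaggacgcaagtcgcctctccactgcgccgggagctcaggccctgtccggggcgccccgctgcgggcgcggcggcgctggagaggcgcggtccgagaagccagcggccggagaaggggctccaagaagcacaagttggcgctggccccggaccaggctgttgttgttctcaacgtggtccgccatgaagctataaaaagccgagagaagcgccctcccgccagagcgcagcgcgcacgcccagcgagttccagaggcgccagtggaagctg
The H2AFZ window held 3 CCAAT and 2 GGGCGG, the H3F3B window held 4 and 1, and the H1FX window held neither. The windows of H2AFX and H2AFV held 4 CCAAT each, and that of H2AFY2 held neither motif.

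Among the 9 genes with enough reads to be tested, transcript levels of single libraries spanned 1.53 to 17073 CPM. H2AFZ had 17073 and 14223 CPM with DMSO and 8607 and 12941 with RAME, and H3F3B had 10541, 14459, 10196 and 8881. Both were among the genes with the most reads, ranking 1 and 3 of all genes in DMSO 1, 2 and 1 in DMSO 2, 13 and 9 in RAME 1, and 6 and 13 in RAME 2. The order of the pair was not the same in every library, since H3F3B exceeded H2AFZ in DMSO 2 and in RAME 1. Together they made up 93.6%, 94.5%, 94.2% and 95.2% of the reads of all 10 genes. H3F3A and H2AFJ followed, with H3F3A above H2AFJ in every library. H1F0 came next in DMSO 1, at 422 CPM above the 341 of H2AFJ there, but lay below H2AFY in both RAME libraries. H2AFY, H1FX, H2AFX and H2AFV were below 50 CPM in every library, H1FX above H2AFX in all but RAME 2, and H2AFY2 was represented by 1 read in RAME 1 and by 0 reads in the other 3 libraries.

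**Figure D1:**
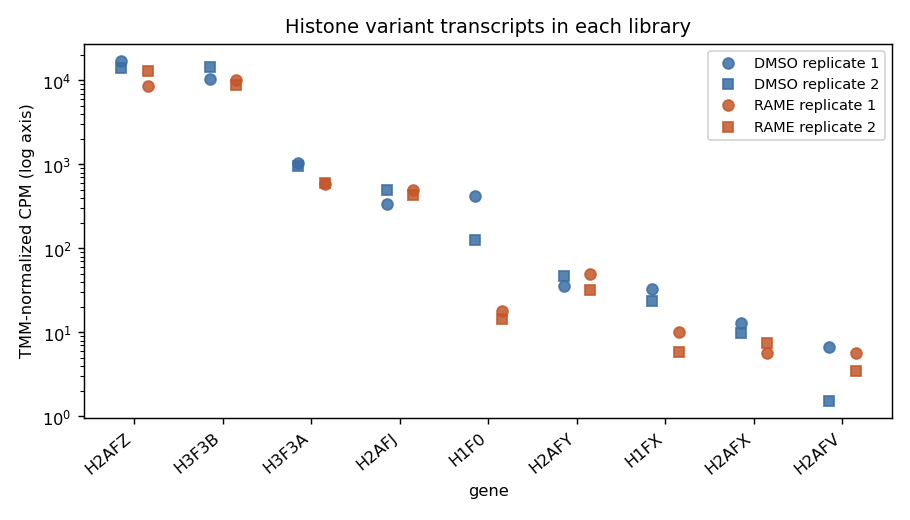
TMM-normalized CPM (log axis) of the 9 genes tested in each library, ordered by mean level, with 1 point per library and no error bars. H2AFZ and H3F3B lie between 8607 and 17073 CPM, the H1F0 points of the RAME libraries (18 and 14.4) lie far below those of the DMSO libraries (422 and 127), and H2AFY2, with 1 read in all, is not drawn.

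Of the 9 genes with enough reads to be tested, 2 were lower with RAME, both of them linker histones, and 0 were higher (edgeR's quasi-likelihood test, Benjamini-Hochberg adjusted p under 0.05 over the 4517 genes tested). Among all genes tested, 13.5% passed in either direction and 7.08% were lower. The count of 0 higher was also 0 at an unadjusted p under 0.05, by DESeq2 and by limma-voom. The levels of both RAME libraries were below those of both DMSO libraries for 6 genes (H2AFZ, H2AFX, H3F3A, H3F3B, H1F0 and H1FX), an arrangement found in 29.5% of all genes tested. They were above both for 0 genes, against 31.1% of all genes, and the groups overlapped for H2AFV, H2AFY and H2AFJ. The log2 fold change was negative for 7 of the 9, with a median of −0.54 beside a median of 0.0062 over all genes tested. Fewer cells of a type and less RNA per cell cannot be told apart in such bulk samples.

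**Figure D2:**
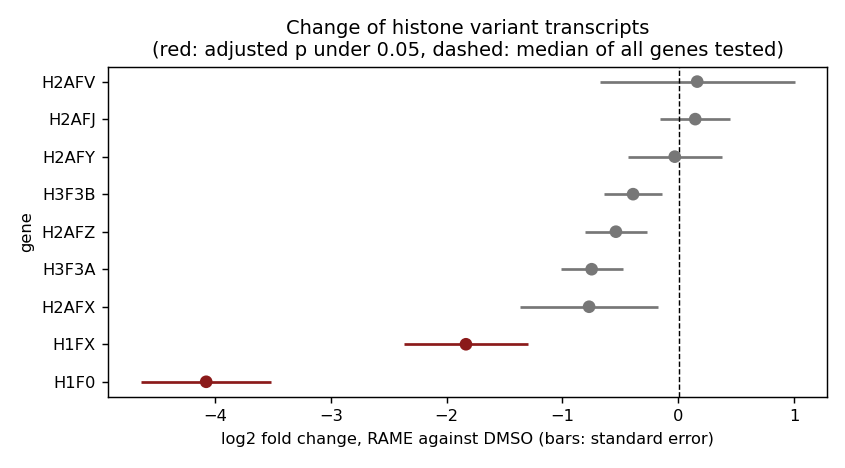
Log2 fold change of RAME against DMSO for the 9 genes tested, as points with bars of 1 standard error, red where the edgeR adjusted p was under 0.05, with a dashed line at the median of all genes tested (0.0062). H1F0 (−4.08) and H1FX (−1.83) are the red points, and the bars of H2AFY, H2AFJ and H2AFV cross the line.

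Linker histones bind DNA where it enters and leaves the nucleosome and help to compact chromatin. H1F0 encodes the variant that builds up in differentiated and resting cells. Its reads were 1010 and 331 with DMSO and 25 in each library with RAME, or 422 and 127 against 18 and 14.4 CPM. Both RAME libraries were far below both DMSO libraries, and DMSO 1 was itself 3.33-fold above DMSO 2. The mean was 274 ± 209 CPM (SD, n = 2) with DMSO and 16.2 ± 2.53 (SD, n = 2) with RAME, a 16.9-fold difference of means. The log2 fold change was −4.08 ± 0.56 (SE), with an adjusted p of 0.00282 in edgeR. Without DMSO 1 it was −2.99 and without DMSO 2 −4.68, and the call held under every alternative tried. The paper's own list of genes lowered by RAME, drawn at its own thresholds, names H1FX but not H1F0. Of the 320 genes that were lower with RAME, 114 (35.6%) were, like H1F0, over 2-fold higher in DMSO 1 than in DMSO 2, as were 587 (13%) of all genes tested. Both shares use the DMSO libraries of the comparison itself.

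H1FX encodes H1X, a linker histone that differs from the others in sequence and is present in most tissues. Its reads were 78 and 62 with DMSO and 14 and 10 with RAME, or 32.6 and 23.7 against 10.1 and 5.78 CPM. The groups did not overlap, and the counts were small in every library. The mean was 28.1 ± 6.27 CPM (SD, n = 2) with DMSO and 7.94 ± 3.05 (SD, n = 2) with RAME, 3.55-fold apart, and the log2 fold change was −1.83 ± 0.53 (SE, adjusted p = 0.0425 in edgeR). This call was lost with limma-voom (0.0631), with upper-quartile scaling (0.0531), with the replicate number as a block (0.0740), and without DMSO 1 (0.108), RAME 1 (0.0738) or RAME 2 (0.214), all as adjusted p. It held with DESeq2 (adjusted p = 0.0460) and without DMSO 2 (0.0117 in edgeR), and the log2 fold change was negative throughout. The overlapping gene H1FX-AS1 shares 14% of the 75-base windows (a read's length) of the H1FX transcript in GENCODE 29, but none in its last 500 bases, near which reads of this kit fall. H1FX-AS1 had 0 reads in all 4 libraries, but the counting and the strand setting are not given. Where reads of the shared windows were counted is therefore unknown.

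Summed over both linker genes, levels were 454, 150, 28.1 and 20.2 CPM, a log2 ratio of means of −3.64. An exact permutation test over the 4 libraries gave p = 0.33, the smallest p that 2 against 2 libraries allow. The 6 replication-dependent H1 genes had 36, 70, 13 and 1 reads between them, most from HIST1H1E. In raw reads, H1F0 had 12.9 and 5.34 times the reads of H1FX with DMSO and 1.79 and 2.5 times with RAME. Those ratios did not overlap, and the difference was −1.98 on the log2 scale (exact permutation p = 0.33, adjusted 0.556 over 5 ratios). It was −1.34 without DMSO 1 and −2.62 without DMSO 2.

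**Figure D3:**
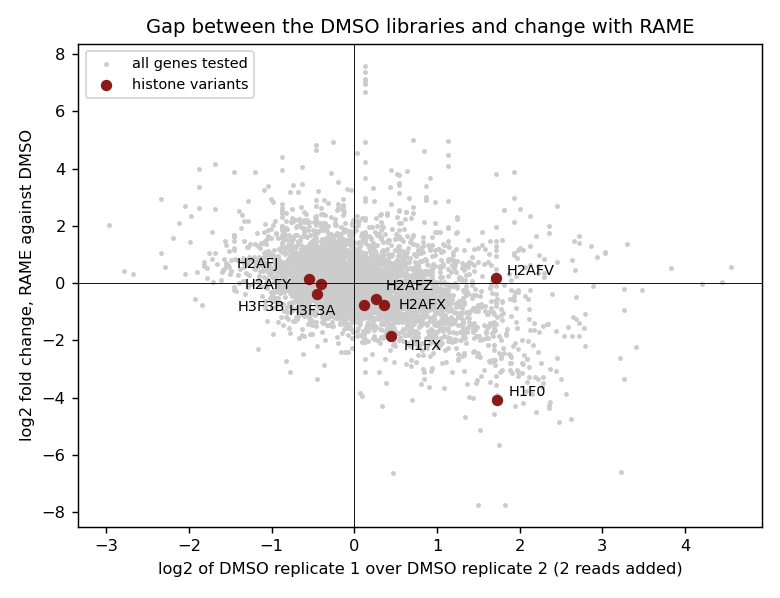
Log2 of the DMSO replicate 1 over the DMSO replicate 2 level (2 reads added) against the log2 fold change of RAME against DMSO, with 1 grey point per gene tested and the histone variants in red. H1F0 lies far right and low, H2AFV lies equally far right near 0 on the vertical axis, and H3F3A lies close to the vertical line of equal DMSO libraries.

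H3F3A and H3F3B encode the same protein, the H3.3 that takes the place of standard H3 in transcribed genes and regulatory regions. H3F3A had 2462 and 2479 reads with DMSO and 802 and 1035 with RAME, or 1028 and 948 against 578 and 598 CPM. These groups were well apart and tight within. The means were 988 ± 56.7 and 588 ± 14 CPM (SD, n = 2 each) and the log2 fold change was −0.75 ± 0.27 (SE), which did not pass the threshold (adjusted p = 0.0826 in edgeR, unadjusted 0.0169).

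H3F3B, with more reads than H3F3A, had 25246 and 37819 reads with DMSO and 14140 and 15370 with RAME. In CPM the higher RAME library (10196) lay just under the lower DMSO library (10541). The log2 fold change was −0.39 ± 0.25 (SE, adjusted p = 0.319 in edgeR), and it was −0.12 without DMSO 2. Together both genes gave 11569 and 15407 CPM with DMSO and 10774 and 9480 with RAME, a log2 ratio of means of −0.41 (exact permutation p = 0.33). H3F3B had 10.3, 15.3, 17.6 and 14.9 times the reads of H3F3A, so the ratios of the groups overlapped (log2 difference 0.37, exact permutation p = 0.667).

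The coding sequences of the H3.3 genes differ although their protein does not, and the intronless relative H3F3C follows H3F3B almost base for base. The last 75 coding bases are shown to compare what a read of that length from this stretch could tell apart. In H3F3B the stretch lies outside the last 500 bases of the transcript, near which reads of this kit fall. Sequences are from GENCODE 29 (GRCh38), 5′ to 3′ and ending in the stop codon, and capitals mark bases that differ from H3F3B.
H3F3B, chromosome 17, minus strand: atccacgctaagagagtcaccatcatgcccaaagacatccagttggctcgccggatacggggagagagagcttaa
H3F3A, chromosome 1, plus strand: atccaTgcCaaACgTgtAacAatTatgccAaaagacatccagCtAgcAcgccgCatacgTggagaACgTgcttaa
H3F3C, chromosome 12, minus strand: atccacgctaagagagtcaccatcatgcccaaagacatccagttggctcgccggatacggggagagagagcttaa
Over the whole coding sequence H3F3A was 78.6% identical to H3F3B, with 88 mismatches in 411 bases, 17 of them in the stretch shown. H3F3C was 97.3% identical, with 11 mismatches, a gap of 3 bases and 0 differences in the stretch shown. H3F3C had 4460, 6078, 3128 and 3341 reads, which was 17.7%, 16.1%, 22.1% and 21.7% of those of H3F3B, and its log2 fold change was −9.2e-05 ± 0.26 (SE, adjusted p = 1.00 in edgeR). Of the 75-base windows of the H3F3B transcript 3.34% also occur in H3F3C, none of them in the last 500 bases of H3F3B, and 5.16% of those in the last 500 bases of H3F3C occur in H3F3B. How the counting treated reads that match both is not given, so the split between H3F3B and H3F3C is uncertain.

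H2AFZ and H2AFV encode the H2A.Z variants, which mark nucleosomes beside the start sites of genes. H2AFZ had 40889 and 37201 reads with DMSO and 11937 and 22395 with RAME. Both RAME libraries were lower in CPM, yet they stood further apart from each other than the DMSO libraries did. The means were 15648 ± 2015 and 10774 ± 3064 CPM (SD, n = 2 each), and the gene took 1.77% and 1.46% of all reads with DMSO and 0.828% and 1.26% with RAME. The log2 fold change of −0.54 ± 0.26 (SE) did not pass the threshold (adjusted p = 0.190 in edgeR), and it was −0.27 without RAME 1. A processed copy, H2AFZP3, shares 3.99% of the 75-base windows in the last 500 bases of the H2AFZ transcript in GENCODE 29.

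H2AFV was measured by 16, 4, 8 and 6 reads, too few to place it. Its highest and its lowest CPM, 6.68 and 1.53, were both in the DMSO group, and the log2 fold change was 0.16 ± 0.84 (SE, adjusted p = 0.925 in edgeR). H2AFZ therefore had 2556, 9300, 1492 and 3733 times the reads of H2AFV, with no separation of the groups (log2 difference −1.05, exact permutation p = 0.667).

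H2AFX encodes the variant that is phosphorylated around DNA breaks and marks them for repair. It had 31 and 26 reads with DMSO and 8 and 13 with RAME, or 12.9 and 9.94 against 5.77 and 7.51 CPM. These reads cover polyadenylated mRNA alone, and any H2AFX mRNA without the tail would be missed. The groups did not overlap, but the log2 fold change of −0.77 ± 0.59 (SE) was close to its own error in size and did not pass (adjusted p = 0.411 in edgeR). Relative to H2AFZ it had 0.000758, 0.000699, 0.000670 and 0.000580 reads per H2AFZ read (log2 difference −0.22, exact permutation p = 0.33).

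H2AFJ, a variant known to accumulate in senescent human fibroblasts with persistent DNA damage, had 816 and 1305 reads with DMSO and 684 and 756 with RAME. In CPM (341, 499, 493 and 437) both RAME libraries lay between the DMSO libraries, and the log2 fold change was 0.15 ± 0.30 (SE, adjusted p = 0.779 in edgeR). It was −0.13 without DMSO 1. Its reads were 26.3 and 50.2 times those of H2AFX with DMSO and 85.5 and 58.2 times with RAME, which did not overlap (log2 difference 0.96, exact permutation p = 0.33, adjusted 0.556). That difference was 0.49 without DMSO 1 and 1.42 without DMSO 2.

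H2AFY and H2AFY2 encode the macroH2A proteins, which carry a large extra domain and are known from the inactive X chromosome and other silent chromatin. H2AFY had 85, 124, 69 and 55 reads, or 35.5, 47.4, 49.8 and 31.8 CPM. The RAME libraries held both the highest and the lowest value, and the log2 fold change was −0.030 ± 0.41 (SE, adjusted p = 0.972 in edgeR). Of the 75-base windows in the last 500 bases of its transcript 44.4% also belong to the overlapping C5orf66, which had 3 reads in DMSO 1 and 0 in the other libraries. Where reads of this shared stretch were counted is unknown. H2AFY2 was not tested. Its 0 reads in the DMSO libraries allow up to 0.619 CPM over the group, at 3 reads and for counting error only, and no difference was detectable at this depth.

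Summed over all 10 genes, the variants took 29492 and 30338 CPM with DMSO and 19964 and 22920 with RAME, or 3.06% and 3.12% of all reads against 1.92% and 2.23%. The DMSO sums were nearly equal and both RAME sums lay below them. Means were 29915 ± 598 and 21442 ± 2090 CPM (SD, n = 2 each), a log2 ratio of −0.48 (exact permutation p = 0.33, the smallest possible). It ran from −0.58 to −0.38 when libraries were left out in turn. H2AFZ and H3F3B set this sum almost alone, and neither passed the test by itself.

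The other genes of the histone pathway were read from 6 lists. Their counts are to be read beside all genes tested, of which 13.5% passed in either direction and 7.08% were lower. Of the 73 replication-dependent histone genes, whose mRNAs mostly lack the tail this kit needs, 16 could be tested, 1 was higher and 0 were lower, with a median log2 fold change of −0.017. The lower count of 0 was 1 at an unadjusted p under 0.05, 1 by DESeq2 and 0 by limma-voom. The higher gene was HIST1H4I, an H4 gene, with 38, 61, 80 and 79 reads and a log2 fold change of 1.39 (adjusted p = 0.0489 in edgeR). That call was lost with DESeq2 (adjusted p = 0.0521), limma-voom (0.0547), library size only (0.0602), DESeq2's size factors in edgeR (0.0527), no filter (0.0516) and the replicate block (0.121), and without DMSO 1 (0.163), RAME 1 (0.303) or RAME 2 (0.0968). HIST1H1E, a replication-dependent linker histone, had 36, 69, 7 and 0 reads, a log2 fold change of −3.11 and an adjusted p of 0.0502 in edgeR. It passed with DESeq2 (adjusted p = 0.0207), library size only (0.0460), no filter (0.000826), the replicate block (0.00707) and the authors' values (0.0278), and without DMSO 1 (0.00049), DMSO 2 (0.0257) or RAME 1 (0.000104). It did not pass with limma-voom (0.0606), DESeq2's size factors in edgeR (0.0532), upper-quartile scaling (0.0545) or the filter of 20 mean reads (0.0589), nor without RAME 2 (0.106). With libraries left out its log2 fold change ran from −8.55 (without RAME 1, where the RAME library that is kept has 0 reads, so that the value is no bound) to −2.07. HIST1H2AL (−0.93) and HIST1H3H (−0.50) had adjusted p of 0.292 and 0.510. All 73 together had 593 and 709 CPM with DMSO and 611 and 682 with RAME, so the groups overlapped (log2 ratio −0.0098, exact permutation p = 1). In that sum HIST3H2A alone gave 856, 1077, 444 and 642 of the 1420, 1855, 848 and 1180 reads. Of 10 other variant histones, H3F3C alone could be tested and did not pass with edgeR, DESeq2 or limma-voom, nor at an unadjusted p under 0.05.

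**Figure D4:**
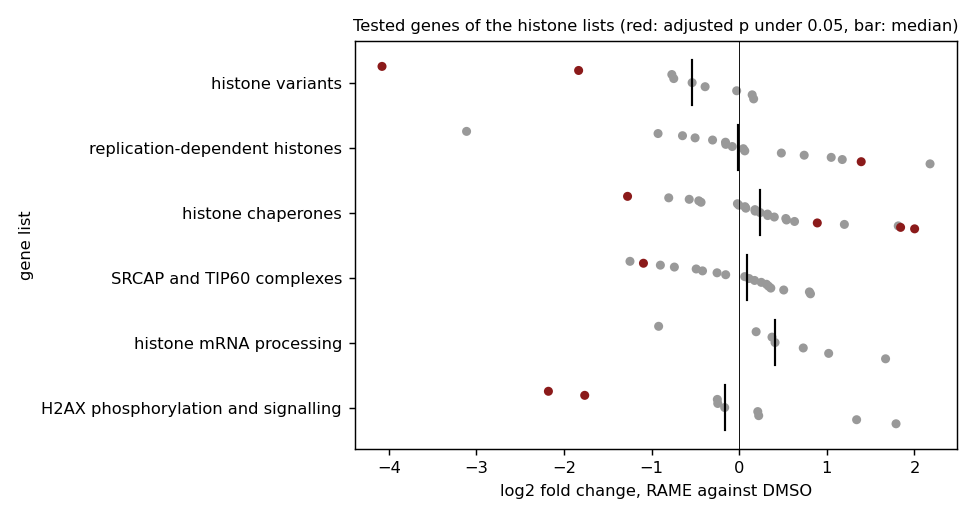
Log2 fold change of RAME against DMSO for each tested gene of 6 histone lists, with red points for an edgeR adjusted p under 0.05 and a bar at each list's median. The median of the histone variants (−0.54) lies left of those of the replication-dependent histones (−0.017) and of the chaperones (0.24).

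Histone chaperones carry histones to and from DNA. Of 31 listed, 23 were tested, 3 were higher and 1 was lower, with a median of 0.24. Among all genes tested, 13.5% passed in either direction. NCL, the nucleolar protein nucleolin, had 501 and 597 reads with DMSO and 1162 and 1264 with RAME (log2 fold change 1.84, adjusted p = 0.00413 in edgeR), and its call held under every alternative. PTMA, prothymosin alpha, an acidic protein that binds linker histone, had 12, 17, 40 and 31 reads (2.0, adjusted p = 0.0370). NPM1, nucleophosmin, had 5448, 7157, 7332 and 6929 reads (0.89, adjusted p = 0.0450). RBBP7, which binds histone H4 in several chromatin complexes, had 4018, 2863, 666 and 1150 reads and was the lower gene (−1.28, adjusted p = 0.0236). Without DMSO 1 or without RAME 1 the edgeR calls of PTMA (adjusted p = 0.0833 and 0.264), NPM1 (0.207 and 0.354) and RBBP7 (0.0975 and 0.160) were lost, and that of NPM1 also without RAME 2 (0.0676). The replicate block ended the calls of all 3 (adjusted p = 0.0629, 0.162 and 0.0545). Limma-voom ended those of PTMA (0.0545) and NPM1 (0.0515), and NPM1 was also lost with library size only (0.0637), no filter (0.0536) and the authors' values (0.0607). HIRA and ATRX, which act on H3.3, had log2 fold changes of 0.065 and 0.18 and did not pass (adjusted p = 0.961 and 0.739 in edgeR).

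Of 23 genes of the SRCAP and TIP60 complexes and their partners, 18 were tested, 0 were higher and 1 was lower, with a median of 0.087. Among all genes tested, 7.08% were lower. The count of 0 higher was also 0 at an unadjusted p under 0.05, by DESeq2 and by limma-voom. ING3, a TIP60 subunit that reads methylated H3, had 2838, 2050, 492 and 981 reads and was lower (log2 fold change −1.09, adjusted p = 0.0488 in edgeR). Its call was lost with limma-voom (adjusted p = 0.0555), with upper-quartile scaling (0.0630), with the replicate block (0.116), without DMSO 1 (0.214) and without RAME 1 (0.346). ACTL6A, an actin-related subunit, did not pass (−0.90, adjusted p = 0.0785), nor did SRCAP (0.81, 0.265), the ATPase that inserts H2A.Z, or TRRAP (−0.74, 0.296), the large scaffold of TIP60.

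Of 18 genes of H2AX phosphorylation and signalling, 9 were tested, 0 were higher and 2 were lower, with a median of −0.17. Among all genes tested, 7.08% were lower. For the higher direction the count was 1 at an unadjusted p under 0.05, and 0 by DESeq2 and by limma-voom. The lower genes were EYA3 and EYA1, phosphatases that remove a tyrosine phosphate from H2AX. EYA3 had 307 and 195 reads with DMSO and 23 and 48 with RAME (log2 fold change −2.18, adjusted p = 0.0107 in edgeR), and its call held under every alternative. EYA1 had 80, 175, 26 and 19 reads (−1.76, adjusted p = 0.0400), a call lost with limma-voom (0.0635), with the replicate block (0.0678), without DMSO 2 (0.146) and without RAME 2 (0.147). MDC1, which binds phosphorylated H2AX, had a log2 fold change of −0.25 and did not pass (adjusted p = 0.742 in edgeR).

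Of 20 genes found for the processing of stem-loop histone mRNA, 7 were tested and 0 passed in edgeR, DESeq2 or limma-voom, with 1 higher and 0 lower at an unadjusted p under 0.05 and a median of 0.41. LSM11, part of the U7 particle that cuts these mRNAs, had a log2 fold change of 1.02 (adjusted p = 0.185 in edgeR), and CPSF1, CPSF2 and NCBP2 had −0.92, 0.19 and 0.37.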

How the data were processed

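The 4 libraries were made with a 3′ mRNA kit from total RNA, and the authors aligned the reads with Bowtie2 to hg19, as the submitters' processing notes name them. The aligner's version, the annotation, the counting and the strand setting were not given in the sources used here. Without strand, a gene and its antisense partner cannot be told apart. The tests used raw read counts, deposited by the authors for each gene, and 1 alternative used the normalized values on a log2 scale that the authors deposited. Their fold and p-value columns compare RAME with DMSO and were not used. No column of other samples was found (0).

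The test was that of edgeR 4.0.16 in R 4.3.3 (filterByExpr defaults, min.count 10 and min.total.count 15, TMM scaling, quasi-likelihood with robust fitting, no replicate block, Benjamini-Hochberg over 4517 of 11683 genes with a read). Standard errors (SE) of log2 fold changes were derived from that test, as the absolute log2 fold change over the square root of its F statistic. The script was tested on simulated counts. TMM factors were 1.04, 1.03, 0.962 and 0.974 for DMSO 1, DMSO 2, RAME 1 and RAME 2, and the biological coefficient of variation was 29.9%. CPM are TMM-normalized unless given as a percent of reads, except the floor given for H2AFY2, which uses the group's raw read total. Ratios of genes use raw reads, compared by exact two-sided permutation over libraries. Intervals and floors cover counting error only. Replicates differed by more than sampling noise (chi-square per degree of freedom 28.8 over 5416 genes with DMSO, 15.4 over 5041 genes with RAME).

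The members and lists were chosen with earlier results of these data known. Named genes are the 10 members, up to 4 tested genes of each list with the smallest p at a mean of at least 20 reads, every called gene of a list with at most 5, and the identity markers. Some of the genes this rule names are not reported here. H1FX-AS1, C5orf66, H2AFZP3, HIRA, ATRX and HIST3H2A were added after values were seen. No gene within 5 rows of a member had counts close to the member's (within 10% plus 1 read in each library). The lists were replication-dependent histones, other variant histones, histone chaperones, SRCAP and TIP60 complexes, histone mRNA processing, and H2AX phosphorylation and signalling. Promoters came from RefSeq (GRCh38.p14) and transcripts from GENCODE 29 (GRCh38), both of another build than the counts, matched by symbol or synonym. Alternatives were DESeq2 1.42.0, limma-voom and limma on the authors' values (limma 3.58.1), other scalings and filters, a looser threshold, a replicate block, 1 read added to ratios and each library left out. A crossed pairing was chosen after seeing the data.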

Additional observations from a re-analysis of the deposited data

How the results depend on the processing

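RAME changed 611 genes in edgeR (291 higher, 320 lower), 663 by DESeq2 and 438 by limma-voom. At an adjusted p under 0.1 the count was 1027, and it ran from 305 (without RAME 1) to 986 (without DMSO 2) as libraries were left out, where the lone library of a group is assumed to vary like the other group. Upper-quartile scaling moved the median of all genes to 0.12 on the log2 scale and the calls to 381 higher and 261 lower, 59.3% higher against 47.6%. Of the histone variants, 1 was lower with limma-voom, 1 with upper-quartile scaling and 1 to 2 as libraries were left out, H1F0 in every case, and 0 were higher under every alternative. Log2 fold changes that changed sign were all uncalled and lay between −0.25 and 0.19 in the main fit. Those of MDC1 and H2AFV moved further with libraries left out. H2AFY was 0.085 with upper-quartile scaling, 0.016 under the filter of 20 mean reads and −0.38 to 0.22 with libraries left out. H3F3C was 0.0019 with limma-voom, 0.11 with upper-quartile scaling, 0.044 under that filter, 0.0044 with either block and −0.18 to 0.19 with libraries left out. With libraries left out H2AFV ran from −0.52 to 0.47, H2AFJ from −0.13 to 0.47, MDC1 from −0.63 to 0.24 and CPSF2 from −0.083 to 0.40. Without DMSO 1 H2AFV did not pass the read filter and was not tested, so its range leaves that case out. The ratio of H2AFY to H2AFY2 could not be computed because of the 0 reads of H2AFY2, and H2AFV, H2AFX and H2AFY2 did not pass that filter. With at most 31 reads per library, H2AFX and H2AFV could show only large differences.

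The replicate numbers are not stated to pair the libraries, and the deviations of same-numbered libraries correlated at −0.318. With the replicate block 437 genes were called and 1 histone variant, H1F0, was lower. With the pairing crossed, chosen after seeing the data, 1785 genes were called and 5 histone variants were lower.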
